A study of Mus musculus with 384 samples.

Results

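The cytosolic ribosomal protein genes were taken by name: every gene of the filtered expression table whose symbol is Rpl or Rps followed by a number, together with Rplp0, Rplp1, Rplp2 and Rpsa, and without the pseudogene rows marked -ps and the Rps6k kinases. This rule gave 86 of 22276 genes, 52 with names of the large subunit and 34 with names of the small subunit. Of the 86, 8 were paralogs of another member (Rpl3l, Rpl7l1, Rpl10l, Rpl22l1, Rpl36al, Rpl39l, Rps27l and Rps4y2), and 1, Rps19bp1, encodes a protein that binds Rps19 and belongs to the set by its name alone. The remaining 77 carry the standard names of ribosomal proteins. Fau and Gnb2l1 (now Rack1), which encode a ribosomal and a ribosome-bound protein under other names, were left to comparison.

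The cells came from dissociated adult mouse lung, for most experiments of 7-10 week old animals. Lgr5+ cells were Tom+ cells of Lgr5-CreERT2;R26-Tom mice, in which Tamoxifen lets a Cre made from the Lgr5 locus switch on a red reporter for good, so that the label marks past as well as present use of the locus. Lgr6+ cells were GFP+ cells of Lgr6-EGFP-CreERT2 mice, in which EGFP is made from the Lgr6 locus itself. For the sequenced cells the study describes Tamoxifen induction of the Lgr5 line only. Both sorts left out cells positive for CD31, CD45, CD11b or TER119, the surface marks of endothelial, immune and red blood cells, and each line gave 2 mice with 95 single-cell wells and 1 pool well per mouse.

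Each cytosolic ribosome is built from a small subunit, which reads the mRNA, and a large subunit, which joins amino acids, and nearly all of their proteins are present in a single copy per ribosome. Their mRNAs are among the most abundant of any cell, and many start with a run of pyrimidines, the 5' terminal oligopyrimidine (TOP) tract, through which their translation is adjusted together to nutrients and growth. Rplp0, Rplp1 and Rplp2 form the stalk that recruits translation factors. A few members have a second copy with restricted expression, such as the retrocopy Rpl10l of the X-linked Rpl10 and Rpl39l, a copy of the X-linked Rpl39, both best known from male germ cells.

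The filter of the authors kept 29 and 28 cells of the Lgr5 mice, against 50 and 75 cells of the Lgr6 mice. Summed counts over kept cells were 9874249 and 13198680 in the Lgr5 mice, against 28875278 and 124650544 in the Lgr6 mice. No pair of wells held identical values. Summed mesenchymal markers (Col1a1, Col1a2, Col3a1, Vim and Pdgfrb) stood at 2184 and 2364 TPM in the Lgr5 mice, against 3419.5 and 3249 TPM in the Lgr6 mice, and summed endothelial and immune markers at 1.98 to 14.5 TPM. Among epithelial markers the surfactant gene Sftpc was the highest. The ribosomal RNA precursor Rn45s took 35.1% of all kept counts. In the mean over cells its share was 34.4% and 32.9% in the Lgr5 mice, against 28.1% and 36.2% in the Lgr6 mice (two-sided exact permutation p = 1). In the sums per mouse used for the test between lines, however, Rn45s had 251528 and 250412 CPM against 332104 and 385326 CPM, without overlap (edgeR, log2 fold change -0.52, SE 0.14, adjusted p = 0.327).

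To ask how much of the sequenced RNA came from the members, their share of the counts was taken in each kept cell. The mean share was 3.06% and 3.96% in the Lgr5 mice, against 2.06% and 2.23% in the Lgr6 mice. Both Lgr5 mice thus stood above both Lgr6 mice. The mean of the mice was 3.51% ± 0.640 (SD, n = 2) in the Lgr5 line and 2.14% ± 0.116 (SD, n = 2) in the Lgr6 line, a difference of 1.37 percentage points or 1.64-fold. With 2 mice against 2 a two-sided exact permutation test cannot go below 0.333, and it gave p = 0.333. Each mouse also gave its own set of libraries, so mouse and library set cannot be told apart. The lines differ in allele, reporter and the described Tamoxifen induction, so line, reporter and Tamoxifen cannot be told apart either. Summed epithelial markers were also higher in the Lgr5 mice (24826 and 29536 TPM against 20122 and 17124), with all 5 of 5 genes above 0 in every mouse. That sum was carried by Sftpc and Scgb1a1, while Sftpb was lower in both Lgr5 mice (63.9 and 138.8 TPM against 219.97 and 237.8) and the mice of the lines overlapped for Epcam and Cdh1. Summed smooth muscle markers were lower (2112 and 894 TPM against 8492 and 8784). Their part in the result was not tested.

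Single cells of one mouse spread widely. Over the kept cells of Lgr5 mouse 1 the share ran from 0.844% to 4.64% with a median of 2.97%, and in Lgr5 mouse 2 from 2.43% to 6.17% with a median of 3.68%. In Lgr6 mouse 1 it ran from 0.646% to 3.46% with a median of 2.05%, and in Lgr6 mouse 2 from 0.720% to 4.55% with a median of 2.16%. The ranges of all 4 mice overlapped, while the order of the lines held for means and medians. A median kept cell had counts in 79 members in each Lgr5 mouse, against 70.5 and 73 in the Lgr6 mice.

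**Figure D1:**
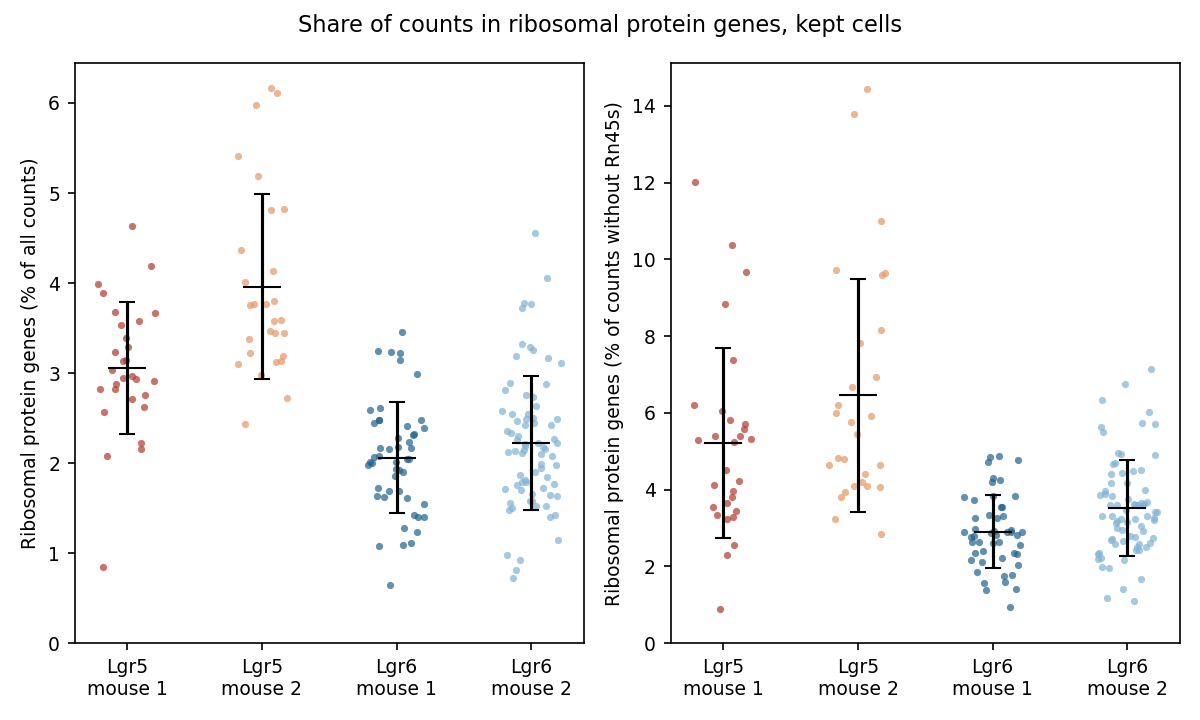
Percentage of the counts of each kept cell that fell in the 86 ribosomal protein genes, of all counts on the left and of counts without Rn45s on the right. Each point is a cell and the black bars give the mean and SD over the cells of a mouse; the means of the Lgr5 mice lie above those of the Lgr6 mice in both panels.

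The order of the lines was the same in every other way of taking the share, with ratios from 1.43 to 1.85. Without Rn45s in the denominator the mean share was 5.21% and 6.46% in the Lgr5 mice, against 2.91% and 3.52% in the Lgr6 mice. Of all TPM, a scale per transcript length that weights short mRNAs up, the members took 13.3% and 15.6% against 7.86% and 8.71%. The single-cell wells that the authors removed gave mean shares of 2.99% and 3.61% in the Lgr5 mice (66 and 67 wells), against 2.25% and 2.31% in the Lgr6 mice (45 and 20 wells). These wells were unlike, with a median of 8267 and 5851 genes found in the Lgr5 mice, against 1180 and 1289 in the Lgr6 mice. Removed wells of at least 10000 counts gave 3.07% and 4.05% in the Lgr5 mice, against 2.06% and 1.71% in the Lgr6 mice. The pools did not follow this order. The pool of Lgr5 mouse 1 held 1.99% (Wilson 95% interval 1.95 to 2.04%, counting error only), below the pools of Lgr6 mouse 1 with 2.45% (2.34 to 2.57%) and Lgr6 mouse 2 with 2.17% (2.15 to 2.19%), while the pool of Lgr5 mouse 2 held 4.17% (4.08 to 4.26%).

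Members differed over a wide range of level. Of the 86, 52 exceeded 1000 TPM in the mean of the 4 mice and 7 were below 100 TPM, and the 10 highest made up 28.2% of all TPM of the members. In 42 members at least 90% of all kept cells had counts, and in 7 fewer than 50% had.

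The stalk gene Rplp1 was the highest member, at 7021 and 8841 TPM in the Lgr5 mice against 2911 and 2743 in the Lgr6 mice. Its partner Rplp2 stood at 2419 and 3567 TPM in the Lgr5 mice against 963 and 1272 in the Lgr6 mice. Rplp0, which anchors the stalk, stood at 1696 and 1909.7 TPM in the Lgr5 mice against 1262 and 1435 in the Lgr6 mice. Both Lgr5 mice stood above both Lgr6 mice in all 3 genes on the TPM scale, with the smallest gap for Rplp0, whose mice overlapped in CPM, the depth-scaled counts used for the test between lines.

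Next in level stood genes of the small subunit and Rpl10. Rps19, a protein of the head of the small subunit that is mutated in Diamond-Blackfan anaemia, stood at 5734 and 6147 TPM in the Lgr5 mice against 1109.8 and 1368 in the Lgr6 mice. Rps18, its neighbour in the head, stood at 5340.0 and 6643 TPM in the Lgr5 mice against 1053 and 1197 in the Lgr6 mice. Rpl10, which sits near the catalytic centre of the large subunit and completes its maturation, stood at 4324 and 4928 TPM in the Lgr5 mice against 2384 and 2385 in the Lgr6 mice. In these 3 genes the lines did not overlap. Rps4x, the X-linked member of its family, was the opposite case, at 2996 and 2940.2 TPM in the Lgr5 mice against 2726 and 3027 in the Lgr6 mice, with an SD over the 4 mice of 4.65% of its mean. Rpl41, Rps14, Rpl19 and Rps27a, a fusion of ubiquitin with a small-subunit protein, were also among the 10 highest. Rpsa, which also serves as a laminin receptor at the cell surface, stood at 965 and 1096 TPM in the Lgr5 mice against 747 and 787 in the Lgr6 mice.

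At the lower end stood Rpl3l, the striated muscle form of Rpl3, with 1.15 TPM in Lgr5 mouse 1 and listed at 0 in the other 3 mice, with 1 count in Lgr6 mouse 2. Rps19bp1 stood at 7.30 and 41.6 TPM in the Lgr5 mice against 7.25 and 17.9 in the Lgr6 mice. Rpl26, which contacts the exit tunnel region, had counts in 1 and 0 cells in the Lgr5 line, against 6 and 9 in the Lgr6 line, and its TPM ran from 0 to 107.6. Rpl30 had counts in 1, 2, 7 and 9 cells of the 4 mice. Rps15a had counts in 92.3% of cells but only 31.9 to 49 TPM, and 2 rows left out by the rule, Rps15a-ps6 and Rps15a-ps4, held counts in every mouse as well. Likewise Rpl34-ps1 held 1388 and 1847 counts in the Lgr5 line, against 2744 and 17624 in the Lgr6 line, while Rpl34 itself held 362 and 992 against 384 and 1131, and counts of such near-identical rows are uncertain, since reads that match both can be split between them.

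**Figure D2:**
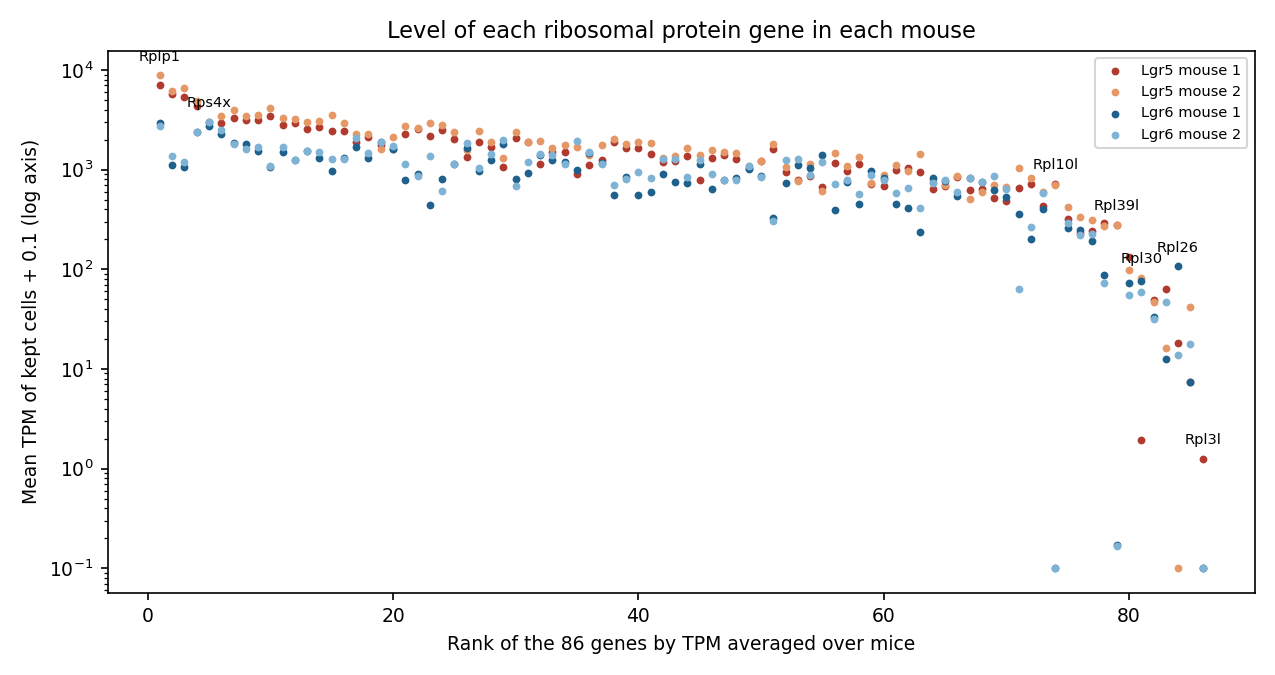
Mean TPM + 0.1 (log axis) of each of the 86 genes in each mouse, ordered by the mean over the mice. Both Lgr5 mice lie above both Lgr6 mice in 54 of the 86 genes and below them in 10. The same share was not taken over all genes in TPM, so these counts are not read as an excess. Rpl10l and Rpl39l lie at 706 to 726 and 275 to 281 TPM in the Lgr5 mice and at or near 0 in the Lgr6 mice.

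The 2 members with the largest gap between the lines were paralogs. Rpl10l lies on chromosome 12 (GRCm38, chr12:66283379-66284401, minus strand) and Rpl10 on the X chromosome (chrX:74270812-74273135, plus strand). Rpl39l lies on chromosome 16 (chr16:10170226-10174911, plus strand) and Rpl39 on the X chromosome (chrX:37082520-37085402, minus strand). The first 90 coding bases of each pair, from the start codon, are printed to show how far reads can tell the copies apart, with the bases that differ between the partners in capitals.

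Rpl10l: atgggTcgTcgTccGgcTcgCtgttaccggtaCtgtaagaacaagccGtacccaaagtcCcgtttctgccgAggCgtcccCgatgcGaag
Rpl10: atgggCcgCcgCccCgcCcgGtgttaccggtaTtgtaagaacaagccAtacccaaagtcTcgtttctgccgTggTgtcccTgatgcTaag
Rpl39l: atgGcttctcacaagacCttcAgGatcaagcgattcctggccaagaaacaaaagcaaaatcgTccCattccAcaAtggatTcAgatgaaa
Rpl39: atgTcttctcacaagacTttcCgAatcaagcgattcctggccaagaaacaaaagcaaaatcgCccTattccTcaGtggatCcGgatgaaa

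Within these windows Rpl10l and Rpl10 differed at 13 bases and Rpl39l and Rpl39 at 10. Over the whole coding sequence the first pair differed at 98 of 642 bases (84.7% identity) and the second at 23 bases (85% identity). Of words of 31 bases, the length that the aligner matched, Rpl10l shared 0% with Rpl10 and Rpl39l shared 1.54% with Rpl39, while 23.4% of the words of Rpl10l also lie in Gm14460, which has no row in the count table.

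Rpl10l had 1480 and 1879 counts in the kept cells of the Lgr5 mice, against 0 and 0 for the Lgr6 mice, where Rpl10 had 22395 and 79088. Among Lgr5+ cells of mouse 1, 25 of 29 held it (86.2%, exact Clopper-Pearson 95% interval 68.3 to 96.1%), and in mouse 2, 25 of 28 (89.3%, 71.8 to 97.7%). Among Lgr6+ cells 0 of 50 and 0 of 75 held it, with exact upper limits of 7.11% and 4.8% (6% and 4% by the rule of 3 counts), which bound the cells with a count and not the cells that use the gene. Its level was 726 and 706 TPM against 0 and 0. Against a floor of 3 counts over the Lgr6 line it was at least 7450.2-fold higher in the Lgr5 line.

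Rpl39l had 505 and 652 counts in the Lgr5 mice, against 1 and 5 in the Lgr6 mice. Cells with a count numbered 26 of 29 and 26 of 28 in the Lgr5 line (89.7% and 92.9%), against 1 of 50 and 2 of 75 in the Lgr6 line (2% and 2.67%). In CPM of the counts pooled over the line it was 1283-fold higher in the Lgr5 line. Its partner Rpl39 did not follow, with 873 and 1131 TPM in the Lgr5 mice against 1051 and 889.9 in the Lgr6 mice.

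Thinned to 99000 reads per cell, the shares of cells with Rpl10l were 82.1% and 80.0% in the Lgr5 mice against 0% in both Lgr6 mice, and those with Rpl39l were the same. Cells below that depth were left out (1, 3, 13 and 2 of the 4 mice). Only the total was made equal, since Rn45s took from 5.66% to 66.8% of the counts of a kept cell, and the depth over other genes still differed.

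The other paralogs were found in both lines. Rpl36al, the copy of Rpl36a, stood at 430.4 and 594 TPM in the Lgr5 mice against 401 and 581 in the Lgr6 mice, while Rpl36a stood at 2479 and 2812 TPM in the Lgr5 mice against 799.5 and 615 in the Lgr6 mice. Rpl22l1, which can stand in for Rpl22, stood at 321 and 421 TPM in the Lgr5 mice against 259.6 and 292 in the Lgr6 mice, and Rpl22 itself at 289 and 274 TPM in the Lgr5 mice against 86.6 and 72.6 in the Lgr6 mice. In CPM the mice of the lines did not overlap for Rpl36a and Rpl22 and overlapped for Rpl36al and Rpl22l1. Rps27l, a target of p53, stood at 231 and 332 TPM in the Lgr5 mice against 249 and 219.6 in the Lgr6 mice, and Rps27 at 2182 and 2914 TPM in the Lgr5 mice against 442 and 1361 in the Lgr6 mice. Rpl7l1, which works in ribosome assembly, stood at 131.5 and 98.2 TPM in the Lgr5 mice against 73.5 and 55.3 in the Lgr6 mice. Rpl7 stood at 1076 and 1304 TPM in the Lgr5 mice against 1829 and 1975 in the Lgr6 mice, the opposite order. Neither change passed the test between lines. The values were 0.67 for Rpl7l1 (edgeR, log2 fold change, SE 0.57, adjusted p = 0.791) and -0.54 for Rpl7 (SE 0.42, adjusted p = 0.768). Rps4y2, an older symbol of Rps4l that the annotation calls a transcribed processed pseudogene, stood at 63.8 and 16.2 TPM in the Lgr5 mice against 12.6 and 47 in the Lgr6 mice.

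To compare the lines gene by gene, a sum of counts over kept cells was made for each mouse and tested with edgeR's quasi-likelihood test across 14086 genes, with the values given as CPM after TMM scaling. Of the members 85 passed the filter on low counts, and Rpl3l did not. By edgeR with Benjamini-Hochberg adjustment 0 of the 85 had an adjusted p under 0.05, and so did 0% of all genes tested. In simulated sums made like these, edgeR recovered 11 and DESeq2 58 of 200 genes changed by 3 on the log2 scale, with 2 and 199 false calls.

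At an unadjusted p under 0.05 stood 15 members, against 9.31% of all genes. Of these, 14 were higher in the Lgr5 line (16.5%, against 4.06% of all genes) and 1 was lower (1.18%, against 5.25% of all genes). The 14 include Rpl10l and Rpl39l, which passed the filter on low counts only through the Lgr5 mice. DESeq2 called 4 members higher at an adjusted p under 0.05 (4.71%, against 1.93% of all genes) and 0 lower (0%, against 2.09%). These 4 include Rpl10l and Rpl39l as well. In the simulated sums DESeq2 also gave 199 false calls, so the 4.71% is not read as an excess among the members. Both Lgr5 mice stood above both Lgr6 mice in 47 members (55.3%, against 18.9% of all genes) and below them in 5 (5.88%, against 24% of all genes). Of the 85 log2 fold changes 70 were above 0 (82.4%, against 48.6% of all genes). Rpl10l and Rpl39l are among both the 47 and the 70. The median of the 85 log2 fold changes was 0.64, with Rpl10l at its bound also 0.64, against -0.05 over all genes. It moved with Lgr5 mouse 2, without which it was 0.36, and with Lgr5 mouse 1, without which it was 0.88.

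The 4 members called by DESeq2 were Rpl10l, Rpl39l, Rps18 and Rps19. Rps18 had 488 and 715 CPM in the Lgr5 mice against 142.3 and 184.6 CPM in the Lgr6 mice (edgeR, log2 fold change 1.88, SE 0.44, adjusted p = 0.327). Rps19 had 762 and 1014 CPM in the Lgr5 mice against 229.8 and 266 CPM in the Lgr6 mice (edgeR, log2 fold change 1.84, SE 0.39, adjusted p = 0.327). For Rpl39l edgeR gave an adjusted p of 0.327 and for Rpl10l of 0.293, in both cases with the mice of the lines far apart.

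Among the members with the largest positive changes after the paralogs were Rpl34, Rpl27 and Rpl15. Rpl34 had 34.5 and 75.4 CPM in the Lgr5 mice against 13.7 and 9.33 CPM in the Lgr6 mice (edgeR, log2 fold change 2.26, SE 0.91, adjusted p = 0.506). Rpl27 had 172.3 and 353 CPM in the Lgr5 mice against 41.6 and 109.95 CPM in the Lgr6 mice (edgeR, log2 fold change 1.79, SE 0.67, adjusted p = 0.458). Rpl15, a core protein of the large subunit, had 852 and 974 CPM in the Lgr5 mice against 313 and 283 CPM in the Lgr6 mice (edgeR, log2 fold change 1.61, SE 0.37, adjusted p = 0.327). In all 3 the mice of the lines did not overlap, and no adjusted p passed the threshold. The change of Rpl34 is uncertain, since reads can be split between it and Rpl34-ps1. That row held 1388 and 1847 counts in the Lgr5 mice, against 2744 and 17624 in the Lgr6 mice, more than Rpl34 in every mouse. The part of such splitting in the change was not tested.

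The largest negative changes were those of Rpl26, Rps2, Rpl30, Rpl7 and Rps6. Rps2, which lies at the entry of the mRNA channel, was the 1 member lower at an unadjusted p under 0.05, with 207 and 295 CPM in the Lgr5 mice against 629 and 456 CPM in the Lgr6 mice (edgeR, log2 fold change -1.11, SE 0.43, adjusted p = 0.475). Rpl7 had 331 and 569.6 CPM in the Lgr5 mice against 617 and 693 CPM in the Lgr6 mice and Rps6, the substrate of the S6 kinases, had 343 and 492 CPM in the Lgr5 mice against 679 and 477 CPM in the Lgr6 mice. Rpl26 had 6.96 and 0 CPM in the Lgr5 mice against 25.8 and 3.12 CPM in the Lgr6 mice, and for both Rpl26 and Rpl30 the mice of a line differed by more than the lines. The 5 members whose Lgr5 mice both stood below both Lgr6 mice were Rps2, Rpl7, Rps4x, Rpl7a and Rpl3. Of these Rps4x had 899 and 902 CPM in the Lgr5 mice against 915 and 969 CPM in the Lgr6 mice, a gap that its SE exceeded (edgeR, log2 fold change -0.06, SE 0.33, adjusted p = 0.968), and its sign changed with the scaling. Rplp0 had 685 and 1006 CPM in the Lgr5 mice against 943 and 783 CPM in the Lgr6 mice (edgeR, log2 fold change -0.03, SE 0.37, adjusted p = 0.985), and its sign changed with the scaling as well. The members thus did not all move one way. By subunit, the median log2 fold change was 0.61 over the 46 large-subunit members other than paralogs and 0.65 over the 31 of the small subunit.

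**Figure D3:**
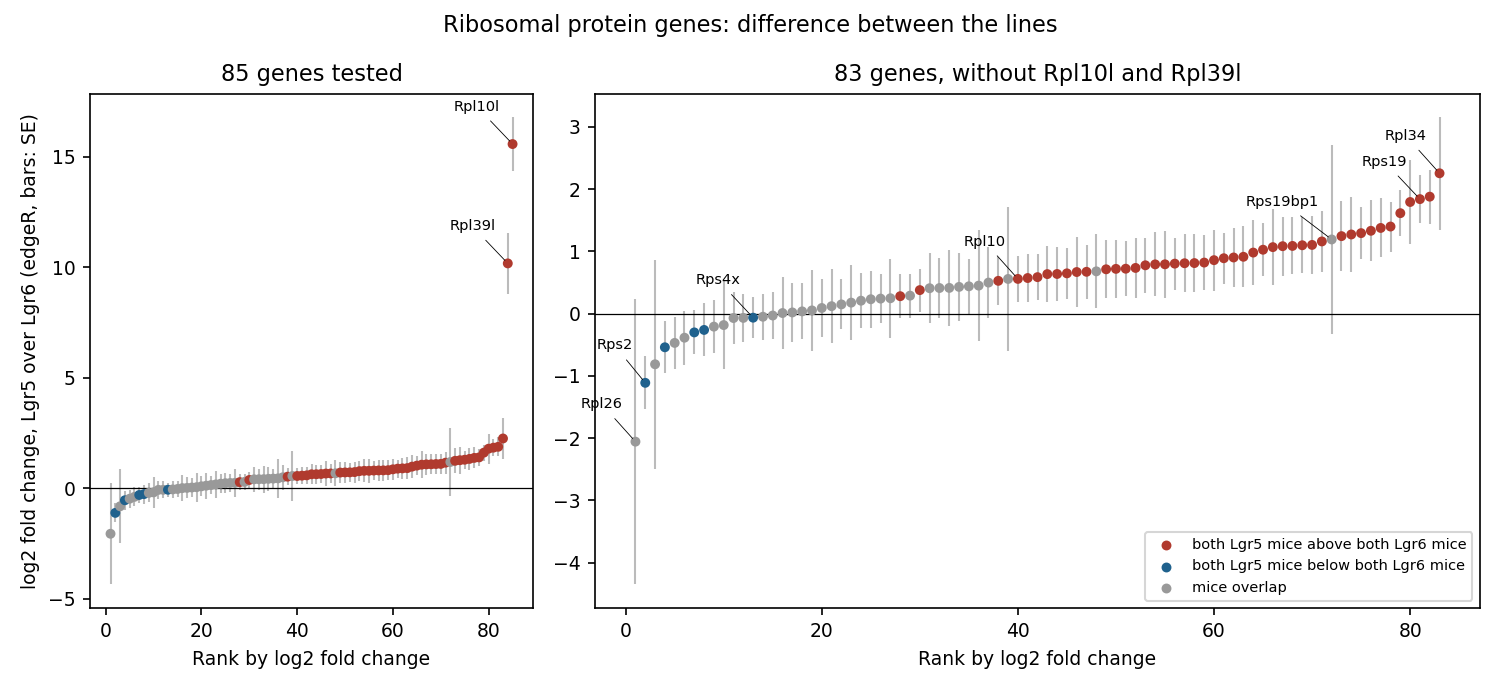
Log2 fold change (Lgr5 over Lgr6, edgeR) with SE of the 85 genes tested, ordered by rank, all on the left and without Rpl10l and Rpl39l on the right. Red points are genes with both Lgr5 mice above both Lgr6 mice and blue points the reverse. Grey points are genes whose mice overlap. Of the 85 values 70 lie above 0 (82.4%, against 48.6% of all genes), Rpl10l and Rpl39l among them.

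Within the Lgr5 mice, Rpl10l and Rpl39l moved from cell to cell with Hbb-bh1, an embryonic beta globin. Hbb-bh1 stood at 2296 and 2737 TPM in the Lgr5 mice, against 2.40 and 0 TPM in the Lgr6 mice. Spearman's rho of Rpl10l with Hbb-bh1 was 0.93 over the 29 kept cells of Lgr5 mouse 1 and 0.96 over the 28 of Lgr5 mouse 2, and that of Rpl39l was 0.87 and 0.78. Pearson's r on log2(TPM + 1) was 0.82 and 0.93 for Rpl10l, and 0.83 and 0.59 for Rpl39l. Cells of a mouse share their sort and library set, and all TPM values here are relative to the total of the same cell. Rpl10l was also lower where the total count of a cell was higher (rho -0.70 and -0.47) and higher where Rn45s took more of it (rho 0.82 and 0.94). The kept Lgr5+ cells without a count of Rpl10l held 289, 5, 27 and 5 counts of Hbb-bh1 in mouse 1. In mouse 2 such cells held 83, 0 and 0.

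The counts of these 3 genes stood in much the same ratios in kept and removed wells. Rpl39l had 0.341 and 0.347 counts per count of Rpl10l in kept cells, and 0.404 and 0.368 in the removed wells of the same mice. Rpl10l had 0.492 and 0.469 counts per count of Hbb-bh1 in kept cells, and 0.463 and 0.478 in removed wells. In the pools of the same mice this ratio was 1.45 and 0.745, on 20 and 51 counts of Hbb-bh1. Of the 9 erythroid genes in the table (2 of the list of 11 have no row), 7 were above 0 in each Lgr5 mouse, against 1 and 2 in the Lgr6 mice, with summed levels of 2361 and 3030 TPM against 2.40 and 9.03 TPM. Gata1 stood at 7.62 and 10.1 TPM in the Lgr5 mice and at 0 in the Lgr6 mice, while Klf1, which defines red cell precursors, was at 0 in every mouse. The sort had removed TER119+ cells. The part of these genes in the difference between the lines was not tested.

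**Figure D4:**
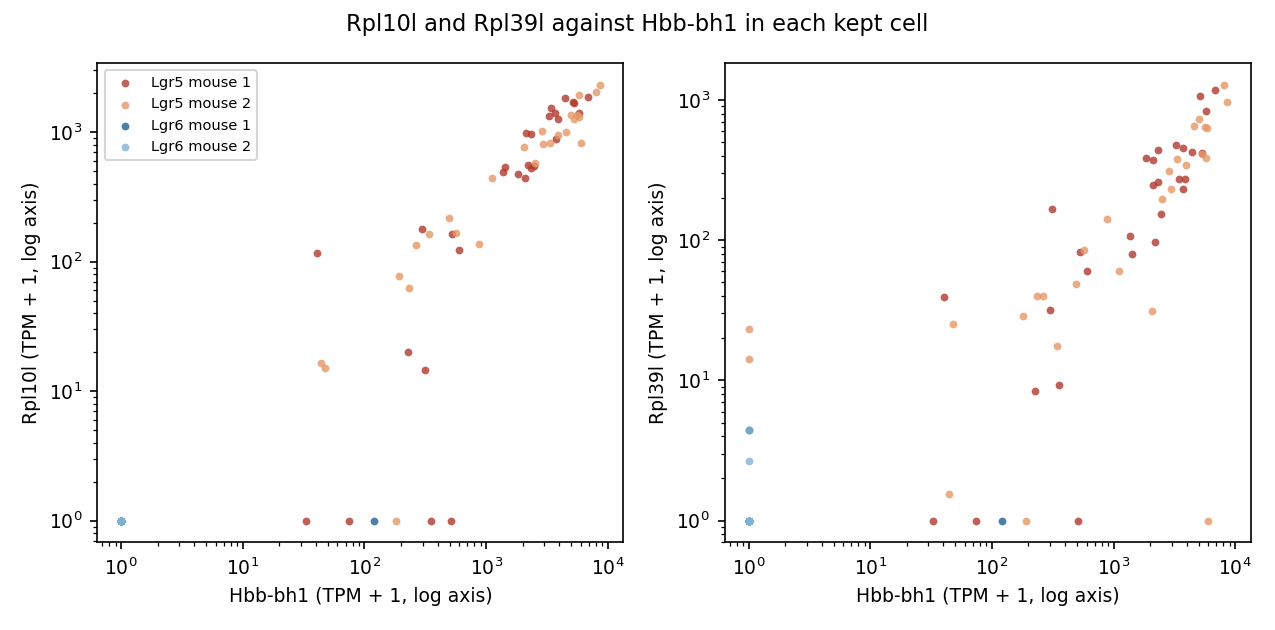
Rpl10l (left) and Rpl39l (right) against Hbb-bh1 in each kept cell, as TPM + 1 on log axes, coloured by mouse. Most cells of the Lgr5 mice lie along a rising band (rho 0.93 and 0.96 for Rpl10l). Cells of the Lgr6 mice lie at or near the lower left.

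Other members followed Hbb-bh1 to very different degrees. Of 84 members with a value in both Lgr5 mice, 27 had a rho above 0.5 in both, 52 above 0 in both and 25 below 0 in both. The highest means of the 2 mice after Rpl10l were those of Rpl15 (0.91 and 0.96), Rps18 (0.89 and 0.96), Rps19 (0.91 and 0.87) and Rps27a (0.89 and 0.87). Lowest were Rps29 (-0.62 and -0.32) and Rpl35a (-0.53 and -0.39). The members with rho above 0.5 in both mice had a median log2 fold change between the lines of 1.03. They include Rpl10l and Rpl39l, which passed the filter on low counts only through the Lgr5 mice. Members with rho below 0 in both mice had a median of 0.24. Over 82 members without Rpl10l and Rpl39l the Spearman correlation of the mean rho with the log2 fold change was 0.58, as a description across genes, which are not independent replicates. The share of the members itself had a rho with Hbb-bh1 of 0.49 and 0.52, and of 0.78 and 0.89 without Rn45s in the denominator. That second share was no less tied to the Rn45s percentage of a cell (rho 0.89 and 0.88). With the elongation factor gene Eef1a1 its rho was 0.88 and 0.81, and with the total count -0.53 and -0.37. Whether the relation is particular to Hbb-bh1 was not tested.

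**Figure D5:**
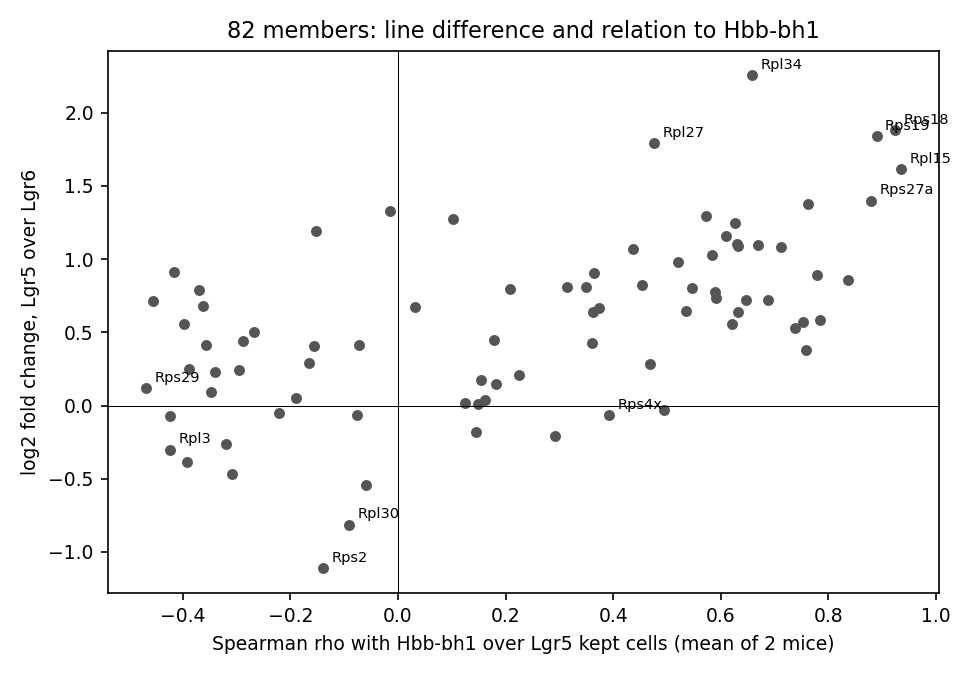
Log2 fold change between the lines (vertical) against Spearman's rho with Hbb-bh1 over the kept Lgr5+ cells (horizontal, mean of the 2 mice) for 82 members, without Rpl10l and Rpl39l. Rps18, Rps19, Rpl15 and Rps27a lie at the upper right, and Rps2 has the lowest log2 fold change.

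Over the kept cells of a mouse, the 75 members other than paralogs with counts in at least 50% of all kept cells had higher rank correlations with each other than other genes had. The median pairwise Spearman rho was 0.18 and 0.12 in the Lgr5 mice, against 0.14 and 0.15 in the Lgr6 mice, and among other genes (1698 to 2818 per mouse) 0.02 to 0.05. With the total count of a cell, the median member had a rho of -0.23 and -0.11 in the Lgr5 mice, against 0.07 and 0.09 in the Lgr6 mice. All of these correlations were weak. The other genes needed counts in at least 50% of the kept cells of a given mouse. They were not matched to the members in level or detection, and the part of this in the gap was not tested.

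Other genes of translation did not share one direction. Of the genes outside the name rule, Fau and Gnb2l1 had log2 fold changes of 0.60 and 0.63, close to the median of the members. Of the 8 elongation factor genes 1, Eef1g, was higher and 0 lower at an unadjusted p under 0.05, with a median log2 fold change of 0.29. Eef1a1, which brings tRNAs to the ribosome, had 3679 and 5144 CPM in the Lgr5 mice against 2960.5 and 2859 CPM in the Lgr6 mice, and Eef2, which moves the ribosome along, had 867 and 1415 CPM in the Lgr5 mice against 1543 and 1382 CPM in the Lgr6 mice. Of 28 initiation factors 2 were higher and 1 lower (median 0.20), of 29 ribosome assembly factors 0 and 0 (median -0.21), and of 76 mitochondrial ribosomal protein genes 0 and 0 (median -0.30).

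The start sites of the members were searched for TOP-like letters in RefSeq windows (GRCm38.p6), which held 65 of the 86. The first word searched was CTTTCC, on both strands of the 40 bases around each annotated start. The second was CTTTTC, and it was searched for in the same way. The last was CTCTTT, and the words can overlap each other. On the strand of the gene 20 of the 65 (30.8%) held at least 1 of them, against 5.24% of 27025 genes in the table, and on the other strand 2 (3.08%) against 4.68%. Among 7 paralogs Rpl39l alone held one. Windows of 30 bases, from 15 before the start, are shown for Rpl15, which has a long pyrimidine run, and for Rpl39l and Rpl10l, the members with the largest gap between the lines, with runs of 5 or more pyrimidines in capitals.

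Rpl15, chr14:18270972-18271001, minus strand: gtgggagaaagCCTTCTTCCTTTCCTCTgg
Rpl39l, chr16:10170213-10170242, plus strand: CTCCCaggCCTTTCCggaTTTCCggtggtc
Rpl10l, chr12:66284387-66284416, minus strand: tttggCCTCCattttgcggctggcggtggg

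The members with one of these words and those without had much the same change between the lines, with a median log2 fold change of 0.67 over 20 and 0.61 over 44 tested members. A word marks letters at an annotated start and not a tract in use. Length and base composition were set beside the change as well. Over the 85 tested members the Spearman correlation of log2 fold change was -0.36 with transcript length, 0.03 with GC content and 0.02 with the percentage of 31-base words shared with any other gene. That percentage had a median of 58.8% and was 50% or more in 55 of the 86 members, so counts of most members can rest in part on reads that also match another gene or pseudogene.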

How the data were processed

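SmartSeq2 libraries of 380 single cells and 4 pools were sequenced and quantified by the authors, per the labels and the methods of the study with kallisto 0.43.0 after bcl2fastq 2.17.1.14, with mm10 in the submitters' processing notes. The annotation release was not given in the sources used here. The authors deposited estimated counts as whole numbers, which are used here as raw counts. A second deposited table holds the counts scaled by the authors to a common depth, treated as a score. The third deposited table holds log2(TPM + 1), which was turned back to TPM. The authors kept cells by a minimum number of genes found, housekeeping genes, an outlying high number of genes found, reporter and Ptprc or Pecam1, and dropped 1146 genes, Rn45s among them, from the filtered tables.

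Kept cells were added up to a sum of counts for each mouse, the replicate (n = 2 per line), and tested with edgeR 4.0.16 (quasi-likelihood, TMM, Benjamini-Hochberg). Alternatives were DESeq2 1.42.0, limma 3.58.1 on log2(TPM + 1) and log2(TPM + 0.1), other library sizes, no filter, all single-cell wells, a replicate block and each mouse left out. Shares were compared by exact permutation. The edgeR and DESeq2 steps were tested on simulated data. Intervals and floors (3 counts) cover counting error only, since reads carry no molecular identifiers, and depth ran from a median of 263129 to 1537593 counts per kept cell by mouse. Doublets were not called, since each well received a sorted cell. Same-numbered mice of the lines deviated together with r = 0.04 over 14086 genes. Named genes were the paralogs with their partners, stalk genes, Rpsa, Rps19bp1, the 10 highest and 5 lowest members, the 5 largest changes each way, the 10 with the largest spread over mice, and translation genes outside the name rule; others named were chosen after their values were seen. Members and lists were chosen with earlier results of these data known. Sequences come from the GRCm38 reference and the RefSeq GRCm38.p6 promoter table. Some genes that the naming rule covers are not reported here.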

Additional observations from a re-analysis of the deposited data

Results flagged for a closer look

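Rpl10l and Rpl39l also had counts in wells outside the comparison, at levels above the matching Lgr6 wells. In the removed wells of Lgr5 mouse 1, Rpl10l had 1616 counts in 49 of 66 wells and Rpl39l 653 counts in 46. In those of Lgr5 mouse 2, Rpl10l had 2079 counts in 46 of 67 wells and Rpl39l 765 counts in 37. The pool of Lgr5 mouse 1 held 29 counts of Rpl10l and 9 of Rpl39l, and the pool of Lgr5 mouse 2 held 38 and 2. The pools of both Lgr6 mice held 0 of each. In the removed wells of Lgr6 mouse 2, 19 counts of Rpl10l lay in 1 of 20 wells, which had 0 counts of Hbb-bh1. The cause was not tested.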

How the results depend on the processing

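The share of the members stayed higher in the Lgr5 line in every alternative run, with ratios of 1.43 to 1.85 as each mouse was left out. The number of members called moved from 0 to 4 with DESeq2, 5 without the filter on low counts and 2 with all single-cell wells. With limma it was 9 on log2(TPM + 1) but 0 on log2(TPM + 0.1), and 9 on the counts scaled by the authors. Calls over all genes also rose from 0 in each of these settings except limma on log2(TPM + 0.1). The share of all genes called differed widely between them, so these counts of members are not read as an excess. The median log2 fold change was 0.36 to 0.88 as each mouse was left out. With the members' own sum as library size, a scaling that removes their common shift by construction, it was 0.19. With plain library size it was 0.71, with library size without Rn45s 0.52, and with all single-cell wells 0.50. DESeq2 gave 0.76 and limma on the counts scaled by the authors 0.80. The replicate block gave 0 members called and a median of 0.59, and since same-numbered mice shared only a number it was not used further. Of 490 values for 35 named members, 32 in 10 members changed sign; 4 of these came from the members' own sum as library size, which shifts every member down by construction, and without that setting 28 in 10 members did. For the other settings the cause was not tested. Rplp0 became 0.086 with DESeq2, 0.045 with plain library size, 0.42 with limma at either pseudocount and 0.64 on scaled counts. Rps4x became 0.057, 0.019, 0.047 and 0.27 in the same order. Rpl22l1 became 0.41 and 0.42 with limma at pseudocounts 1 and 0.1, 0.42 on scaled counts and 0.11 with all wells. With the members' sum as library size Rpl36al became -0.46, Rpl39 -0.36, Rps27l -0.076 and Rpsa -0.34. Rpl36al was also -0.15 with all wells and -0.12 without Rn45s in the library size. As each mouse was left out, the value ran from -0.24 to 0.21 for Rplp0, -0.070 to 0.022 for Rps4x, -0.24 to 0.34 for Rpl36al, -0.51 to 0.67 for Rpl39, -0.19 to 0.92 for Rps27l, -0.21 to 0.48 for Rpsa, -1.19 to 2.05 for Rps19bp1 and -3.06 to 0.11 for Rpl30. For Rpl26 it ran from -12.60 to 0.25, the first without Lgr5 mouse 1, where the remaining Lgr5 mouse had 0 counts and the fitted value is no bound. The setting without Rn45s in the library size and wells of at least 10000 counts were chosen after seeing the data. With 2 mice per line, 0 calls in a test across genes does not show that members did not differ.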
